A study of Mus musculus with 6 samples.

Results

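The transcripts of 9 genes of blood coagulation and fibrinolysis were examined in tick-bitten skin of mice that had or lacked adiponectin, a hormone that fat cells release. The genes were F3, Vwf, F13a1, Thbd, Tfpi, Plau, Plat, Plaur and Serpine2, taken by their symbols, and they were 9 of the 15667 genes in the table. RNA-seq libraries were made from ear skin of 3 wild-type (WT, Adipo+/+) and 3 knockout (KO, Adipo-/-) mice, 1 punch of bitten skin per mouse, after 48 h of feeding by 10 ticks per mouse. All mice were females of 7 to 8 weeks of the strain B6;129-Adipoqtm1Chan/J, and the KO mice were littermates of the WT mice in which both copies of the adiponectin gene carried a germline null allele, so that the loss was not limited to fat. Every mouse was bitten, and unbitten skin was not analysed here, so that the values describe bitten skin of either genotype and not the response to the bite.

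Coagulation starts when blood meets tissue factor, a receptor on cells outside the vessel lumen, and ends when thrombin turns fibrinogen into fibrin, which factor XIII then cross-links. Thrombomodulin on endothelium and the tissue factor pathway inhibitor restrain this cascade. Plasmin dissolves fibrin, and it is made from plasminogen by the urokinase-type and tissue-type activators, which serine protease inhibitors of the serpin family hold in check. A feeding tick meets this system in its host, because the mouth parts tear small vessels and the tick draws on the pool of blood that forms.

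Values are in CPM, in which every library is scaled to the same total of reads, so that a value is a gene's share of its library. Implied depth was 3403712 to 6591505 reads per library, at which 3 reads stood for 0.455 to 0.881 CPM. The targeted gene Adipoq was at 30.5, 63.7 and 49.6 CPM in WT replicates 1, 2 and 3. The KO libraries held 0, 2 and 0 of its reads, so no label went against the targeted gene. The summed CPM of 11 keratinocyte markers was 38245 to 57217 and that of 11 fibroblast markers 4805 to 7331 over the 6 libraries, so the defining cell types of skin were present. Libraries of the same genotype also differed from each other. Hair follicle markers (21 genes) summed to 30.01 and 37.4 CPM in WT replicates 1 and 2, to 24543 CPM in WT replicate 3 and to 1025 to 9746 CPM in KO. Erythroid markers (7 genes) summed to 94.9 to 7532 CPM over the libraries. Markers of skeletal muscle and of fat leaned lower in KO, although the groups overlapped in both sums. All 12 muscle markers had a fitted difference below 0 and 3 were lower at an unadjusted p below 0.05 (Myh1, Mylpf and Myl1), with sums of 5848 to 7651 CPM for WT and 3583 to 7235 CPM for KO. All 10 adipocyte markers were fitted below 0 and 3 were lower (Fabp4, Retn and the targeted gene), with sums of 601 to 901 CPM for WT and 348 to 853 CPM for KO. Fitted differences were also below 0 for 15 of 18 endothelial, 13 of 15 macrophage, 6 of 8 neutrophil, 4 of 5 platelet and 5 of 6 erythroid markers tested. They were below 0 for 6 of 11 fibroblast, 2 of 11 keratinocyte and 1 of 21 hair follicle markers. Over all genes tested, 56.7% were fitted below 0 and 1.82% were lower at an unadjusted p below 0.05. The part of these markers in the results was not tested, except where a value is given with the hair follicle score in the model.

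All 9 genes passed the filter of a mean of 1 CPM, below which genes were not tested. In KO skin 1 of the 9, F3, was lower at an unadjusted p below 0.05, and 0 were higher. Over all 14306 genes tested, 1.82% were lower and 1.06% were higher at that level, 2.88% in all. This split depended on the scaling, with 260 lower and 152 higher in CPM, 215 and 210 after median-of-ratios rescaling, and 193 and 232 after quantile normalization. After Benjamini-Hochberg adjustment in limma 0 of the 9 passed (adjusted p = 0.998 for each), and 0.014% of all genes did. The KO values lay wholly below the WT values for F3 alone among the 9, and for 4.89% of all genes tested. They lay wholly above the WT values for 0 of the 9 and for 2.95% of all genes. The fitted difference was below 0 for 6 of the 9 and above 0 for 3, and it was below 0 for 56.7% of all genes tested. The median was -0.30 for the 9 genes on the log2(CPM + 0.5) scale, where the median over all genes tested was -0.03. The smallest p of an exact permutation test of 3 against 3 libraries is 0.1. Each library was a separate mouse by the study's account, and the labels give only a replicate number.

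**Figure D1:**
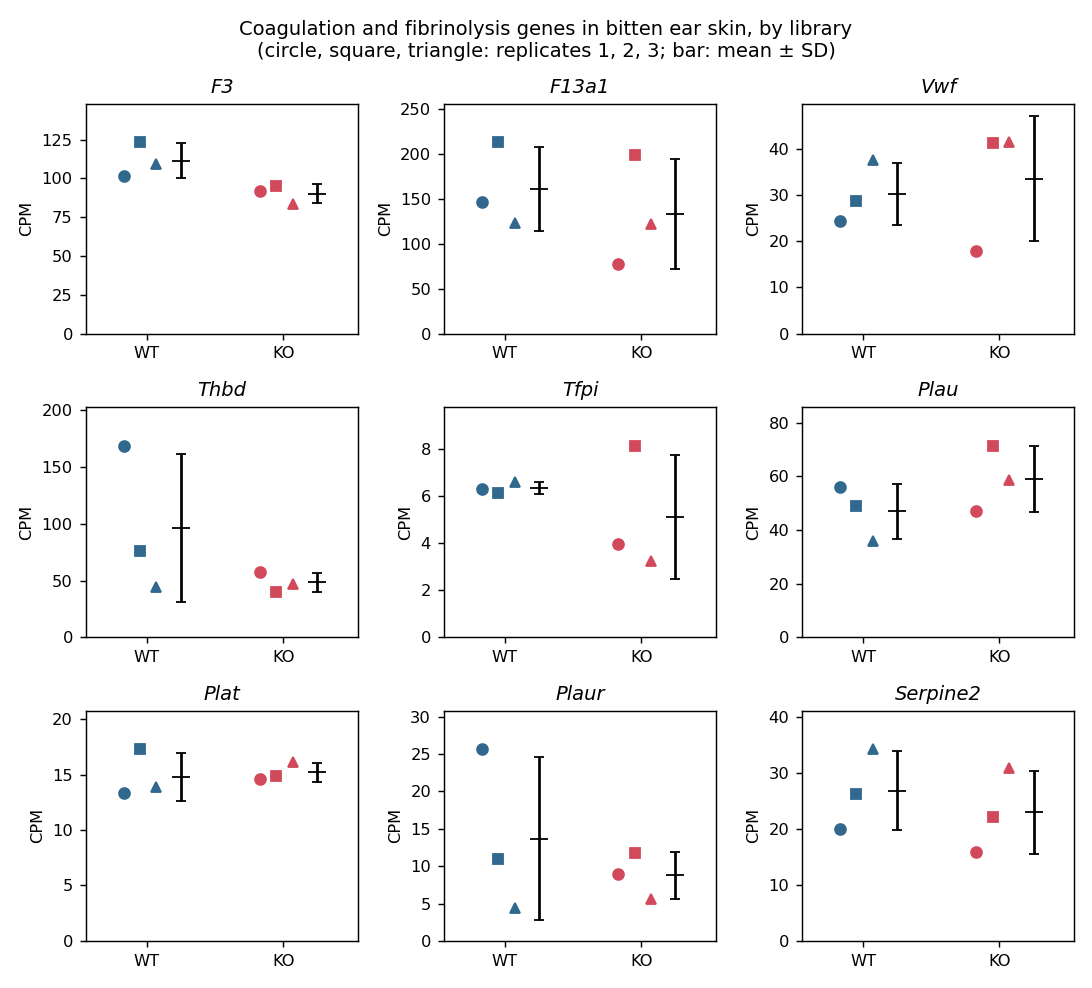
Level of each of the 9 genes (y axis, CPM, from 0) in the 3 WT and 3 KO libraries, with symbols for replicates 1 to 3 and the mean ± SD of each group beside them. F3 is the gene whose groups are apart, Thbd and Plaur are highest in WT replicate 1 (169 and 25.7 CPM), and Plat lies between 13.3 and 17.3 CPM throughout.

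F3 encodes tissue factor, the receptor of factor VII that sets off coagulation (chromosome 3, 121723537 to 121735052, plus strand). WT replicates 1, 2 and 3 had 101, 123 and 109 CPM of F3, and KO replicates 1, 2 and 3 had 91.9, 95.3 and 83.4 CPM. All KO libraries were below all WT libraries, although the gap between the lowest WT and the highest KO library was small beside the spread within WT. The mean was 111 ± 11.2 CPM for WT against 90.2 ± 6.10 CPM for KO (SD, n = 3 each). The fitted log2 difference of KO from WT was -0.30 (SE 0.11, 95% interval -0.57 to -0.03), which is -18.7% (limma, unadjusted p = 0.0318, adjusted p = 0.998). The exact permutation p was 0.1, the smallest this design allows. F3 had little spread within the groups, with a within-group SD of 0.12 on the log2 scale, against a median of 0.25 over all genes tested. The direction was the same under each of the 18 alternatives. Leaving out a library could not turn it, because all KO values lay below all WT values. The unadjusted p ranged from 0.0197 to 0.117. It was above 0.05 when WT replicate 2 (0.117) or WT replicate 3 (0.0534) was left out, and likewise for KO replicate 1 (0.0580) and KO replicate 3 (0.104). The same held without the mean-variance trend (0.0696) and with the score of the hair follicle markers in the model (0.0503).

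The sequence before the start of F3 is shown with that of Plaur, the gene for the urokinase receptor, because F3 was the gene whose groups did not overlap and Plaur had the widest spread between libraries. RefSeq windows (GRCm38.p6) were found for 5 of the 9 genes (F3, F13a1, Tfpi, Plaur and Serpine2). The 250 bases before the start are given 5′ to 3′ along the gene's strand. Capitals mark matches on either strand to 5 motifs. The motif of the AP-1 factors was searched as TGANTCA, where N stands for any base of the 4. That of the Sp1 factors was searched as GGGCGG, and that of the EGR factors, which can share bases with it, as GCGNGGGCG. The TATA box was searched as TATAAA, and the NF-kB motif was searched as well. The F3 window is chr3:121723287-121723536 and the Plaur window is chr7:24462233-24462482, both on the plus strand.
F3: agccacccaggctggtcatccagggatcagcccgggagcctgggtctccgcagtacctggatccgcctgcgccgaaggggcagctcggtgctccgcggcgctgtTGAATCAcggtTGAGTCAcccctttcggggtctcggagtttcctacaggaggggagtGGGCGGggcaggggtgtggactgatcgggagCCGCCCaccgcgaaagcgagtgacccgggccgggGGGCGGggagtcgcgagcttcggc
Plaur: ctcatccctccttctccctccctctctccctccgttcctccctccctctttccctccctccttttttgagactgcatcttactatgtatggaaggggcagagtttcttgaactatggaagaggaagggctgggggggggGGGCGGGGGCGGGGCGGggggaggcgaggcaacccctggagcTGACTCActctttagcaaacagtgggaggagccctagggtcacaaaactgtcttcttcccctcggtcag
The F3 window held the AP-1 letters at 2 places, TGAATCA 146 to 140 and TGAGTCA 135 to 129 bases before the start, and the Sp1 letters at 3 places. The Plaur window held TGACTCA 69 to 63 bases before the start, and 3 Sp1 matches between 111 and 95 bases before the start, with an EGR match 109 to 101 bases before it that shares their letters. Neither held the NF-kB letters as searched or the TATA letters. The F3 window does hold CGGAGTTTCC, which differs from the searched NF-kB letters only in its first base. A site that departs from the searched letters is not marked, so the lack of a match does not show that a site is absent. The windows of F13a1, Tfpi and Serpine2 held no AP-1 match. Of all 32851 promoter windows cut to these 250 bases, 6.75% held the AP-1 letters, 32.7% the Sp1 letters, 4.70% the EGR letters, 1.41% the NF-kB letters and 12.4% the TATA letters. The GC content was 70% for F3 and 59.6% for Plaur, with a median of 52.4% over all windows. These are matches of letters only, and whether a factor was bound there was not measured.

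Vwf encodes von Willebrand factor, the large protein of endothelium and platelets that tethers platelets to an injured vessel (chromosome 6, 125552948 to 125686679, plus strand). The WT libraries had 24.4, 28.7 and 37.6 CPM, and the KO libraries had 17.9, 41.2 and 41.4 CPM. The lowest and the highest library were both KO, and the groups overlapped (log2 difference 0.07, 95% interval -0.70 to 0.84). The sign of the difference turned with single libraries, from 0.47 when KO replicate 1 was left out to -0.13 when KO replicate 3 was, and it was -0.07 and -0.12 when WT replicate 1 or KO replicate 2 was. KO replicate 1 was also lowest in the 18 endothelial markers, of which Pecam1, Ptprb and Eng had the highest levels. They summed to 213 CPM there and to 314 to 345 CPM in the other 5 libraries, and none was at 0. Of these markers 3 were lower in KO at an unadjusted p below 0.05 (Tek, Robo4 and Ptprb) and 0 were higher, against 1.82% and 1.06% of all genes tested. As a share of that sum, Vwf was 7.55%, 8.31% and 11.97% for WT, against 8.42%, 12.3% and 13.1% for KO. In bulk skin, fewer cells of a type and less RNA per cell cannot be told apart.

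F13a1 encodes the catalytic A subunit of factor XIII, the transglutaminase that cross-links fibrin, and is known from platelets and from tissue macrophages (chromosome 13, 36867178 to 37050244, minus strand). Its values were 147, 213 and 123 CPM for WT, against 78.0, 199 and 122 CPM for KO. WT replicate 2 and KO replicate 2 were both high and the groups overlapped (161 ± 46.7 and 133 ± 61.2 CPM, log2 difference -0.34, 95% interval -1.11 to 0.43). Leaving out KO replicate 1 gave -0.01, and leaving out KO replicate 2 gave -0.68 (unadjusted p = 0.0447 in limma, adjusted p = 0.998). The 15 macrophage markers, led by Mrc1, Lyz2 and Csf1r, moved with it across the libraries. They summed to 967, 1325 and 694 CPM for WT, against 635, 1249 and 793 CPM for KO, with none at 0 in any library. Of these 15, Lyve1 was lower in KO at an unadjusted p below 0.05 and 0 were higher, against 1.82% and 1.06% of all genes tested. F13a1 was 12.3% to 17.8% of that sum (16.3 ± 1.29% in WT and 14.5 ± 1.98% in KO), so that a 2.73-fold range of F13a1 became a 1.45-fold range. The Pearson correlation of the log2 values over the 6 libraries was 0.95, the highest of the pairs of gene and marker sum compared. With the endothelial sum it was 0.72 for Vwf, 0.53 for Tfpi, 0.24 for Plat and 0.11 for Thbd. It was 0.89 for Plaur with the neutrophil sum, 0.26 for Serpine2 with the hair follicle sum and -0.37 for F3 with the keratinocyte sum. The markers of platelets and megakaryocytes (7 in the table of 8 listed, led by Pf4) summed to 46.8 to 83.4 CPM.

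**Figure D2:**
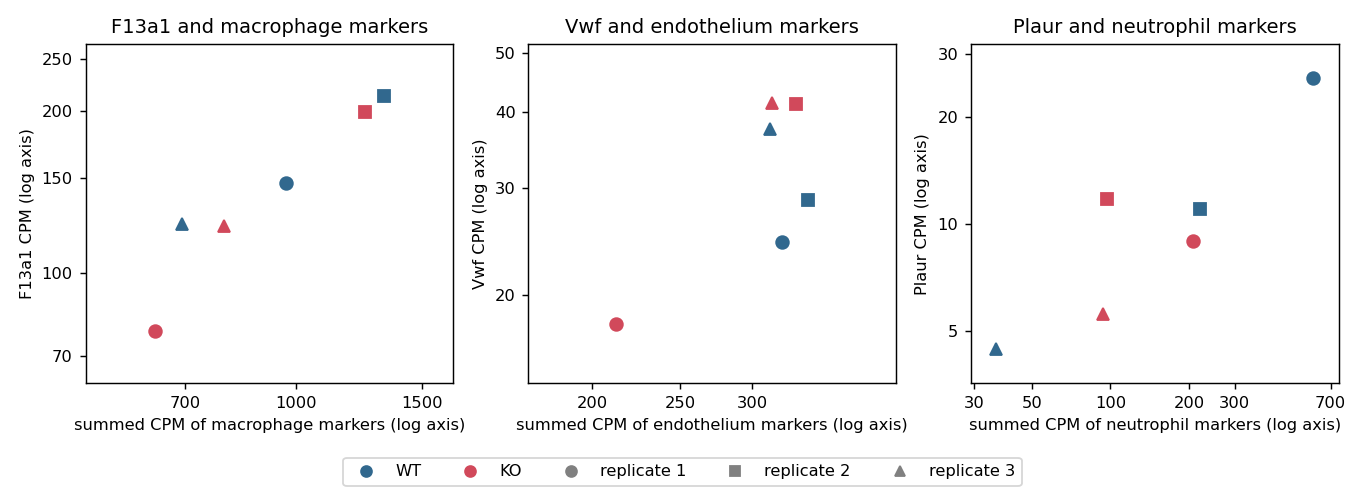
Level of F13a1, Vwf and Plaur (y axes, CPM, log scale) against the summed CPM of macrophage, endothelial and neutrophil markers (x axes, log scale) in each WT and KO library. F13a1 follows the macrophage sum in libraries of both genotypes, KO replicate 1 is lowest for Vwf and for the endothelial sum (17.9 and 213 CPM), and Plaur and the neutrophil sum are highest in WT replicate 1 (25.7 and 600.3 CPM).

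Thbd encodes thrombomodulin, which captures thrombin on endothelium and turns it to the activation of protein C (chromosome 2, 148404471 to 148408188, minus strand). WT replicates 1, 2 and 3 had 169, 75.9 and 44.0 CPM, where the KO replicates had 57.6, 40.4 and 47.0 CPM. WT replicate 1 stood far above the rest, while WT replicate 3 lay within the KO range. The fitted difference was the widest of the 9 genes, at -0.78 (SE 0.43, 95% interval -1.77 to 0.20, unadjusted p = 0.103 in limma). Leaving out WT replicate 1 gave -0.27, and leaving out WT replicate 3 gave -1.24 (unadjusted p = 0.00309, adjusted p = 0.373). With the score of the hair follicle markers in the model it was -0.40. Endothelial markers did not share the high value of WT replicate 1. Thbd was 52.2% of their sum in that library, and 12.04% to 27.1% in the other 5. The Pearson correlation of Thbd with that sum was 0.11 on the log2 scale, and which cells held the Thbd RNA was not measured.

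Tfpi encodes the tissue factor pathway inhibitor, which blocks the complex of tissue factor with factor VII (chromosome 2, 84432860 to 84476775, minus strand). It was measured at 6.29, 6.10 and 6.59 CPM for WT, and for KO at 3.94, 8.13 and 3.23 CPM. The WT libraries were close to each other, and the KO libraries lay on both sides of them. These values rest on 11 to 40 reads per library. The log2 difference was -0.38 (95% interval -1.18 to 0.41), and -0.75 when KO replicate 2 was left out (unadjusted p = 0.0320 in limma, adjusted p = 0.998). Per kilobase of exon, F3 was 33.1 to 72.9 times as abundant as its inhibitor Tfpi, and 1.19 to 4.93 times as abundant as Thbd. The groups overlapped in both ratios.

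Plau encodes the urokinase-type plasminogen activator (chromosome 14, 20836662 to 20843388, plus strand). The 3 WT libraries had 56.2, 48.8 and 35.9 CPM, and the 3 KO libraries had 47.2, 71.5 and 58.5 CPM. It had the widest fitted difference above 0 of the 9 genes (0.33, SE 0.21, 95% interval -0.15 to 0.81, unadjusted p = 0.153 in limma), and the groups overlapped. Plat encodes the tissue-type activator (chromosome 8, 22757722 to 22782848, plus strand). Its WT values were 13.3, 17.3 and 13.8 CPM, and its KO values were 14.6, 14.9 and 16.2 CPM. No library stood apart, and the log2 difference was 0.04 (95% interval -0.36 to 0.45). An interval of this width does not show that the groups were equal. Per kilobase of exon Plau was 2.80 to 5.19 times as abundant as Plat over the 6 libraries.

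Plaur encodes the receptor that holds urokinase on the cell surface and is known from neutrophils and activated macrophages (chromosome 7, 24462483 to 24475968, plus strand). For WT its level was 25.7, 10.98 and 4.45 CPM, and for KO 8.95, 11.8 and 5.58 CPM. The highest and the lowest library were both WT, so the spread within WT covered all KO values. Its within-group SD of 0.92 on the log2 scale was above that of 96.4% of the genes tested. The log2 difference was -0.36 (95% interval -1.67 to 0.95), 0.24 when WT replicate 1 was left out, and -0.96 when WT replicate 3 was (unadjusted p = 0.0453 in limma, adjusted p = 0.987). The 9 neutrophil markers in the table, led by S100a9, S100a8 and Mmp9, summed to 600.3, 220.3 and 36.4 CPM for WT, against 207, 96.7 and 93.7 CPM for KO. The same WT libraries were thus highest and lowest in Plaur and in the neutrophil sum, and Mmp8 was the 1 marker of the 9 at 0 in a library (KO replicate 3). The correlation of the log2 values over the 6 libraries was 0.89, where the sum ranged 16.5-fold and Plaur 5.76-fold, and Plaur was 4.27% to 12.2% of the sum. The part of the neutrophil, macrophage and endothelial markers in these results was not tested. Among pairs of the 9 genes the highest correlation was that of Thbd with Plaur, 0.82 over the same 6 libraries.

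Serpine2 encodes protease nexin-1, a serpin that inhibits thrombin and both plasminogen activators (chromosome 1, 79794321 to 79858665, minus strand). The WT samples had 20.1, 26.2 and 34.3 CPM, and the KO samples had 15.9, 22.1 and 30.8 CPM. Each group spanned a similar range, and the groups overlapped (26.9 ± 7.12 and 23.0 ± 7.49 CPM, log2 difference -0.24, 95% interval -0.88 to 0.41). Leaving out KO replicate 1 gave -0.01, and leaving out KO replicate 3 gave -0.47. The ratio of Plau to Serpine2 per kilobase of exon was 2.64, 1.76 and 0.989 for WT, against 2.79, 3.05 and 1.79 for KO. The groups overlapped in this ratio as well.

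**Figure D3:**
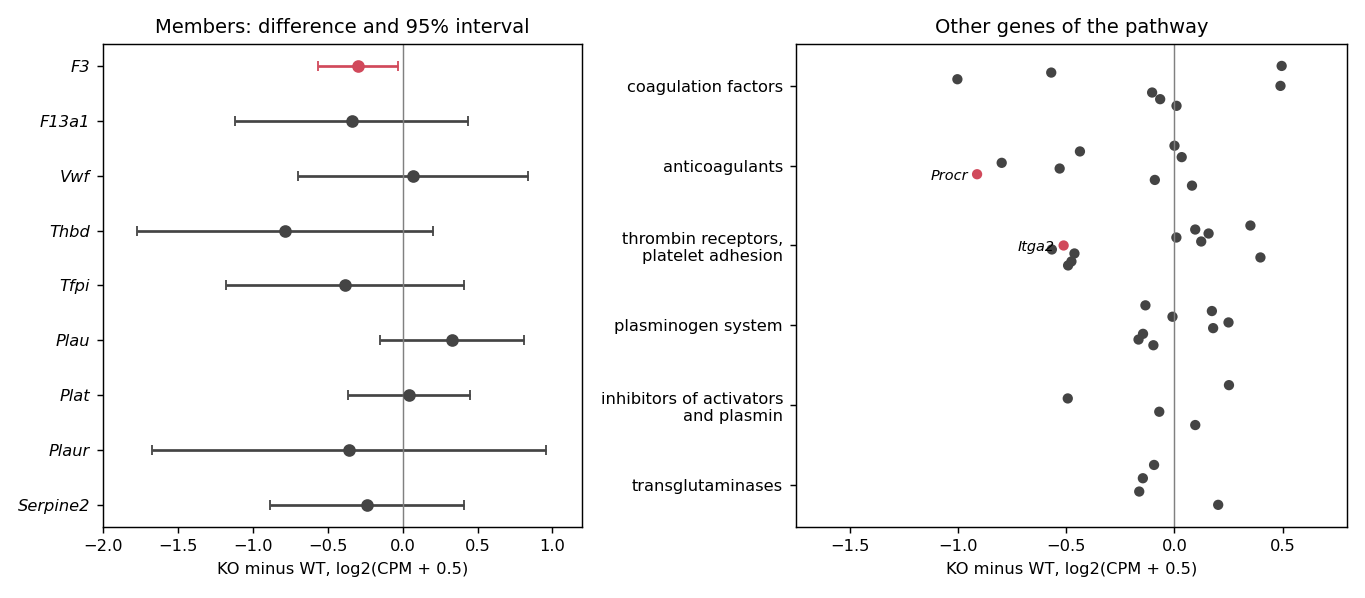
Difference between KO and WT (x axes, log2(CPM + 0.5) scale, below 0 when lower in KO) of the 9 genes with 95% intervals from limma (left) and of 42 other genes of the pathway (right). Red points have an unadjusted p below 0.05, which are F3 at -0.30, Procr at -0.91 and Itga2 at -0.51.

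Levels were compared between the genes per kilobase of merged exons (GENCODE M21), as CPM per kilobase. The order was F3 (mean over the 6 libraries 53.8), F13a1 (36.7), Plau (22.6), Thbd (19.4), Serpine2 (11.3), Plaur (7.46), Plat (5.94), Vwf (3.26) and Tfpi (1.08). The ranges of neighbours in this order overlapped except for Plat above Vwf and Vwf above Tfpi. F3 was above F13a1 in each of the 6 libraries although the ranges overlapped, while Thbd was above Serpine2 and Plaur above Plat in 4 of 6. Merged exons join the exons of all annotated transcripts of a gene, so this length can exceed that of the transcript present. Which transcripts were present was not examined, and the ratios per kilobase given above share this limit.

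The rest of the pathway was examined through 6 lists, 73 genes in all, of which 42 were tested, 11 were below the filter and 20 were not analysed here. Of the 42, 2 were lower in KO skin at an unadjusted p below 0.05 and 0 were higher, against 1.82% and 1.06% of all genes, and 0 passed the adjustment in limma. With median-of-ratios rescaling 2 were lower and 3 higher (F2r, Ggcx and P2ry1), and with quantile normalization 2 were lower and 2 higher (F2r and Ggcx). The median log2 difference was -0.08. KO and WT values did not overlap for 4 genes (F8, Itga2 and P2ry12 below, F2r above), and for 7.84% of all genes tested. F8 rests on few reads, at 2.18, 1.42 and 2.64 CPM for WT, against 1.37, 0.280 and 0.881 CPM for KO. In KO replicate 2, 0.280 CPM is the value of 1 read, and in KO replicate 3, 0.881 CPM is that of 3 reads. The 2 genes lower in KO were Procr and Itga2. These and F3 are in the study's own listing of genes from the same samples, so their direction is not independent evidence.

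Among the natural anticoagulants, Procr, the endothelial receptor of protein C, was the gene of 8 tested that was lower at an unadjusted p below 0.05. Its values were 12.1, 10.8 and 19.6 CPM for WT, against 6.98, 11.2 and 4.41 CPM for KO. The groups overlapped, and the log2 difference was -0.91 (SE 0.36, unadjusted p = 0.0370, adjusted p = 0.998 in limma). The unadjusted p was above 0.05 when replicate 1 or 3 of WT (0.0543 and 0.111) or replicate 1 or 3 of KO (0.0770 and 0.124) was left out, and with the replicate number as a block (0.0663). Gas6, Anxa5 and Pros1, the most abundant of this list, had means of 276, 151 and 107 CPM for WT, against 289, 151 and 99.4 CPM for KO. They encode a vitamin K-dependent ligand, a phospholipid-binding annexin and protein S.

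Among 11 genes of thrombin and related receptors and of platelet adhesion, Itga2, a subunit of a collagen-binding integrin, was lower in KO at an unadjusted p below 0.05. The WT libraries had 43.1, 46.4 and 34.1 CPM, and the KO libraries had 31.9, 26.1 and 27.9 CPM, without overlap. The log2 difference was -0.51 (SE 0.16, unadjusted p = 0.0129, adjusted p = 0.998 in limma), and the unadjusted p was 0.0544 when WT replicate 2 was left out. F2r, a thrombin receptor, was at 32.1 ± 3.73 CPM for WT, against 41.2 ± 5.53 CPM for KO (SD, log2 difference 0.35, unadjusted p = 0.0534 in limma). The unadjusted p of F2r was below 0.05 under 5 of the 18 alternatives, namely each of the 3 other scalings, the replicate block and leaving out KO replicate 1. F2rl1 and P2ry1 had means of 66.8 and 47.4 CPM for WT, against 70.8 and 61.2 CPM for KO.

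Among 7 coagulation factors and cofactors 0 were below 0.05. The liver genes F2, Fga, Fgb and Fgg were among those not analysed here, and Lman1, Mcfd2 and Vkorc1, which serve the secretion and the vitamin K cycle of clotting factors, were the most abundant (77.2, 35.8 and 19.98 CPM for WT, 71.3, 34.6 and 20.4 CPM for KO). None of the 8 tested genes of the plasminogen system was below 0.05 either. Lrp1, a clearance receptor of activator and inhibitor complexes, was at 1036 ± 93.6 CPM for WT, against 1035 ± 154 CPM for KO. Anxa2 was at 951 and 851 CPM, and Eno1, which can share reads with a near-identical copy, at 153 and 166 CPM. Of the 4 tested inhibitors 0 were below 0.05, and Serpinb2, an inhibitor of urokinase, was at 283 ± 106 CPM for WT, against 198 ± 64.0 CPM for KO (log2 difference -0.49, unadjusted p = 0.150 in limma). The difference of Serpinb2 was -0.79 when WT replicate 3 was left out (unadjusted p = 0.0109) and -0.74 when KO replicate 1 was (0.0463), and -0.23 when WT replicate 1 was. With the replicate block its unadjusted p was 0.00609. Serpinb6a and Serpinb8 were at 164 and 113 CPM for WT, against 156 and 120.3 CPM for KO. Of 4 transglutaminases related to factor XIII 0 were called, and Tgm1 and Tgm2 were at 173 and 55.7 CPM for WT, against 163 and 50.6 CPM for KO. Tgm3 was at 116 ± 113 CPM for WT, where replicate 1 had 246 CPM and the others 38.2 and 65.3 CPM, against 78.5 ± 25.0 CPM for KO. Its log2 difference of -0.16 was 0.60 when WT replicate 1 was left out and -0.73 when WT replicate 2 was.

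**Figure D4:**
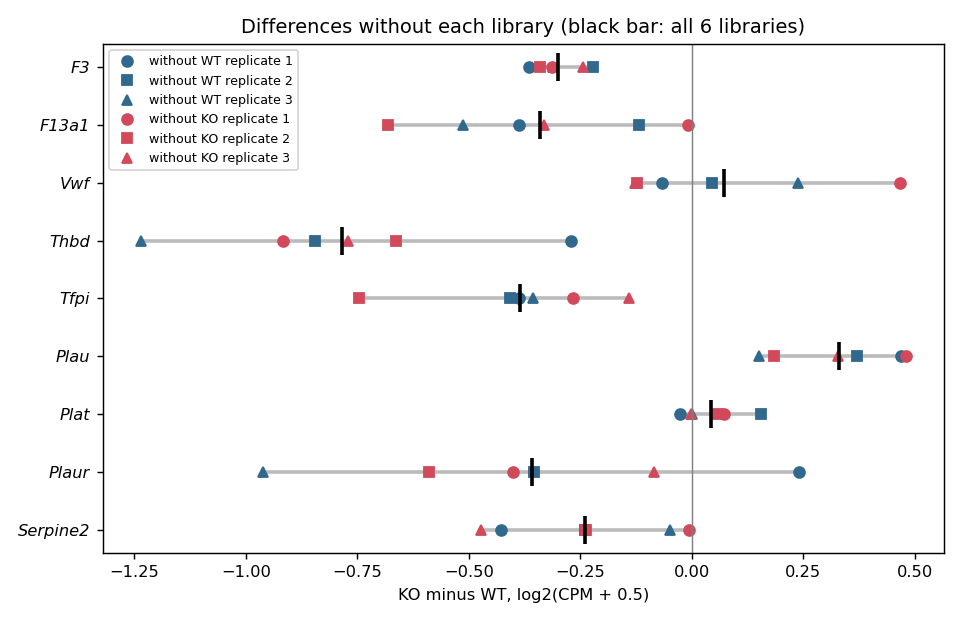
Difference between KO and WT of each of the 9 genes (x axis, log2(CPM + 0.5) scale) with all 6 libraries (black bar) and with each library left out (symbols by the library left out, joined by a grey line). F3 stays between -0.36 and -0.22, while Plaur runs from -0.96 without WT replicate 3 to 0.24 without WT replicate 1.

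The genes most like each of the 9 across the 6 libraries were also listed, among the 9850 genes that averaged 10 CPM or more. F3 was most like Lysmd3 and Zfp954 (Pearson r 0.99 for each), F13a1 was most like C1ra (0.995) and Zeb2 (0.989), and Thbd was most like Crabp2 and Tiparp (0.99 for each). Plaur was most like Tbca and Bcl3 (0.99 for each), Serpine2 was most like Penk and Srgap1 (0.99 for each), and Vwf was most like Dpysl3 and Igsf10 (0.99 for each). Tfpi was most like Mtap and Coq2 (0.99 for each), Plau was most like Snrnp70 (0.99) and Myo9b (0.98), and Plat was most like Erp29 and Pdxdc1 (0.99 for each). Between 11 and 48 genes had an r above 0.95 with a given gene, the points are 6 libraries of 2 genotypes, and the likeness is a description only.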

How the data were processed

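Bitten ear skin of 3 WT and 3 KO mice was sequenced with paired-end Illumina reads, and groups were taken from the sample titles. Trimming, alignment to mm10 with STAR (2.7.3a) and transcript quantification by Partek's E/M algorithm, which can split reads between genes, were done by the authors. The deposited gene values are CPM, for which the authors divided each count by the library's total and added an offset of 0.0001, which was removed. Whether strand was used is not given in the sources, and no other gene in the table overlapped the 9 genes. Gene positions are those of the table (GRCm38, from 1, with listed ends lowered by 1).

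KO was compared with WT by limma (3.58.1, R 4.3.3, eBayes with a mean-variance trend) on log2(CPM + 0.5), two-sided, with no covariate, for 14306 genes (mean CPM 1 or more), and Benjamini-Hochberg adjustment was over all of them. This scale understates the change of low genes. Depth came from the step between low values, of which 91.9% to 92.8% lay within 0.1 of a whole read, so reads are estimates and no count model was the main test. Named genes were the 9 genes, genes of the 6 lists with an unadjusted p below 0.05 and the 3 most abundant of each list, markers of highest level, and the 2 genes most like each of the 9. F8, P2ry12, Ggcx, Itgb3, Mmp8 and markers with a low p were named after their values were seen. The genes and lists were chosen with earlier results of these data known. 1 gene of the lists is not reported here. Replicates were separate mice per the methods. Alternatives were other pseudocounts, filters, scalings and variance models, a replicate block, a hair follicle covariate and leaving out each library.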

Additional observations from a re-analysis of the deposited data

How the results depend on the processing

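For the 9 genes, 142 of 162 values under an alternative had the direction and the side of an unadjusted p of 0.05 that all 6 libraries gave, 5 newly passed, 6 no longer passed (all for F3) and 9 changed sign. Of the 9 genes, 0 passed the adjustment under any of the 18 alternatives. The number below an unadjusted p of 0.05 was 0 without the mean-variance trend, 0 with the hair follicle covariate, and 0 to 3 without a single library. It was 0 without WT replicate 2, KO replicate 1 or KO replicate 3, 2 without WT replicate 3 and 3 without KO replicate 2. The difference of Vwf was -0.063 with limma voom on recovered reads and -0.087 with the hair follicle covariate, and that of Plaur was 0.061 with that covariate. Without a single library the differences ranged from -0.13 to 0.47 for Vwf, from -0.027 to 0.16 for Plat and from -0.96 to 0.24 for Plaur. Of the listed genes tested (42 with the main filter) the number below 0.05 was 5 with median-of-ratios rescaling, 4 with quantile normalization, 9 with the hair follicle covariate and 1 to 6 without a single library, against 2 with all. The next counts cover the listed genes below an unadjusted p of 0.05 and the 3 most abundant of each list. For these, 311 values under an alternative kept direction and side, 13 newly passed, 6 no longer passed (5 of Procr, 1 of Itga2) and 30 changed sign. F8, P2ry12, Ggcx and Itgb3 are outside these counts, and each was below 0.05 under some alternative. With the hair follicle covariate the difference was 0.048 for Anxa2, 0.015 for Lman1, 0.031 for Lrp1, 0.045 for Serpinb6a and 0.00065 for Tgm3. Lrp1 was at 0.021 with median-of-ratios rescaling and 0.011 without Rn45s in the total, and Anxa5 at -0.0048 with limma voom. Without a single library the ranges that crossed 0 were -0.067 to 0.11 for Anxa5, -0.090 to 0.43 for Eno1, -0.040 to 0.17 for F2rl1, -0.19 to 0.19 for Gas6, -0.11 to 0.10 for Lrp1, -0.21 to 0.092 for Mcfd2, -0.21 to 0.048 for Pros1, -0.19 to 0.014 for Serpinb6a, -0.046 to 0.24 for Serpinb8, -0.29 to 0.024 for Tgm2, -0.73 to 0.60 for Tgm3 and -0.14 to 0.18 for Vkorc1. Over all genes, 412 were below an unadjusted p of 0.05, 875 with the hair follicle covariate and 309 to 708 without a single library. After adjustment 2 passed, 1 with limma voom, 9 with the covariate and 0 to 16 without a single library. Where no cause is shown by the setting itself, the cause was not tested.

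The labels do not say whether equal replicate numbers mark a shared litter or day. The correlations of deviations of same-numbered WT and KO libraries were 0.38, -0.31 and -0.22, and not every library correlated best with its own number. These correlations cannot decide whether the samples were paired, because deviations from a group's own mean are tied to each other. With the replicate block the number of the 9 genes below 0.05 was 2 (F3 and Thbd), and the number of listed genes was 4 (F2r, Itga2, Itgb3 and Serpinb2), without Procr. Among the 9 genes Tfpi had the fewest reads, 11 to 40 per library.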
